A study of Mus musculus with 4 samples.

Results

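The regulatory DNA of Foxp3, the X-linked gene that encodes the transcription factor specifying the Treg cell lineage, was examined in the ATAC-seq libraries of lymph node (LN) Treg cells. Every called peak was taken that overlapped chromosome X from 7559567 to 7615245 (mm10), which is the gene body from 7579567 to 7595245 with 20 kb on either side, whether it was strong or weak and whether it was called in several libraries or in 1. The WT lists held 17 and 19 such peaks and those of Il2ra mut/mut cells held 15 and 19. They sum to 70 peaks of the 112569, 126761, 122776 and 142732 in the lists, where values are given here and below in the order of WT replicates 1 and 2, then Il2ra mut/mut replicates 1 and 2. Peaks that shared at least 1 bp were joined into 17 regions, of 272233 in the series.

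LN Treg cells were isolated from naive C57BL/6 females aged 6 to 8 weeks, 2 WT mice and 2 Il2ra mut/mut mice, and 50000 cells entered each library. Il2ra mut/mut mice are homozygous for a point mutation in Il2ra, which encodes the alpha chain of the IL-2 receptor (CD25), and their Treg cells carry little of it at the surface. All 4 mice also carried the Foxp3 Rfp/Rfp reporter, so that RFP is made from the Foxp3 locus itself, and the cells were sorted as RFP+. Cells of both genotypes were therefore chosen by the activity of the gene described here. In each cell of a female an X chromosome is inactivated, and the libraries pool the reads of both X copies.

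Foxp3 is controlled by a promoter and by conserved noncoding sequences (CNS) in its introns. CNS1 holds sites for SMAD and NFAT and is known for the induction of Foxp3 in peripheral T cells. CNS2, the CpG-rich element whose demethylation marks stable Treg cells, binds STAT5, RUNX, ETS and CREB factors and keeps Foxp3 expressed in dividing cells, and CNS3 binds c-Rel and acts when Foxp3 is first switched on. IL-2 acts on the gene through STAT5. The elements were placed by their known offsets from the main transcription start (position 7579676 of the RefSeq transcript, which has 13 exons), since the peak lists carry no such names. ATAC-seq marks open DNA by the insertion of a transposase and does not measure transcription, methylation or binding.

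The 3 stretches below are 300 bases of the mm10 reference on the plus strand, the strand of Foxp3, each centred on the median summit of a region called in all libraries. They are shown because they carry the main contrast at this locus, a weak peak over the promoter and a strong one over CNS2. Capitals mark matches of at least 6 letters to a fixed set of 11 transcription factor words, read on both strands.

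Foxp3 promoter, chrX:7579436-7579735: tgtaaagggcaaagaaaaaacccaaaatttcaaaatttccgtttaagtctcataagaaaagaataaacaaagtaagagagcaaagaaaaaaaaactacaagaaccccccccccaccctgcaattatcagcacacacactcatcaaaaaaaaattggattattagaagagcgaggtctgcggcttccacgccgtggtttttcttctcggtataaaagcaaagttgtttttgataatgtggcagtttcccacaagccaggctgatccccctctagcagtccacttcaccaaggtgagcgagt

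Foxp3 CNS2, chrX:7583953-7584252: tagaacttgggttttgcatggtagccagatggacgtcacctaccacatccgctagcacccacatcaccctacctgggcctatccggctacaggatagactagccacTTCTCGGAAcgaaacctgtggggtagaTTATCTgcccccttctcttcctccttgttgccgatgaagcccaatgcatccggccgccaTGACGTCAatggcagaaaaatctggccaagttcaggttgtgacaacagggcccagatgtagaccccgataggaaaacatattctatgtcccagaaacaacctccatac

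Foxp3 CNS3, chrX:7586460-7586759: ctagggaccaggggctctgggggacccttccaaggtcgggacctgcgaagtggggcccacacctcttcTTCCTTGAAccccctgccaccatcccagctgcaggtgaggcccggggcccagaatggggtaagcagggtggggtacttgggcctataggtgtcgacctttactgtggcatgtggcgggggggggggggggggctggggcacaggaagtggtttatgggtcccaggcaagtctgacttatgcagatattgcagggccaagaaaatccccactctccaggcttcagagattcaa

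The CNS2 stretch held a STAT word (TTCNNNGAA), read as TTCTCGGAA from 7584059 to 7584067, and a full CRE word (TGACGTCA), the word of CREB and ATF factors, from 7584145 to 7584152. It also held a GATA word (AGATAA, here on the minus strand) from 7584086 to 7584091. Over the 300 bases around the summits of all 38281 regions called in all 4 libraries, 8.65% held the STAT word, 1.68% the full CRE word and 11.3% the GATA word. Among the 25281 of these regions that lay over 1 kb from an annotated start, the STAT word was in 9.92%, the full CRE word in 0.744% and the GATA word in 14.3%. The shorter CRE word (TGACG) was found 3 times in CNS2, of which 2 lie within the full word, and in 20.9% of all windows. The promoter stretch held none of the words of at least 6 letters, and a single match to the short SMAD word (CAGAC, found in 53.7% of all windows) 67 bp before the start. The CNS3 stretch held a STAT word, TTCCTTGAA, from 7586528 to 7586536, which lies in exon 3, the exon with the start codon (7586334 to 7586561), and not in the intron. The words for ETS (CCGGAAG), RUNX (TGTGGTT), NFAT (TGGAAA), forkhead factors (TGTTTAC), AP-1 (TGANTCA) and NF-kappaB were in none of the 3 stretches. They were in 8.5%, 10.2%, 21.4%, 3.92%, 10.7% and 5.71% of all windows.

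CNS2 had 10 CpG in its 300 bases, against a median of 4 over the regions more than 1 kb from a start, of which 92.6% had at most 10. The promoter had 7 CpG and a GC content of 41.3%. The median promoter region had 23 CpG and a GC content of 62.7%, and 17.1% of the promoter regions had at most 7 CpG. CNS3 had 5 CpG. Among the sequences shown, CNS2 was thus rich in CpG for a distal region and the promoter poor in CpG for a promoter.

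A peak in these lists carries a fold enrichment at its summit, a −log10 p and a −log10 q, all of them the authors' values. The fold enrichment of every peak could be read back as whole reads (within 0.05 reads) over a background of 0.974, 0.979, 1.23 and 1.06 reads in the 4 libraries. The number of reads at the summit is used below as the height of a peak. The lowest peak of a list held 5 reads (6 in Il2ra mut/mut replicate 1), and the median peak 8, 8, 10 and 8 reads. The total number of reads per library is unknown, so heights are compared within a library, as a percentile among all peaks of the list, or between libraries after centring. T and Treg cell identity was checked on the promoters of marker genes: a peak overlapped the promoters of Cd3e, Cd4, Foxp3, Il2ra, Ctla4, Ikzf2 and Tnfrsf18 in all 4 libraries. No library had one at the promoters of the B cell genes Ms4a1 and Cd79a, the myeloid genes Csf1r, Itgax, Lyz2 and Adgre1, or the NK cell genes Ncr1 and Klrb1c. Of the CD8 T cell genes, Cd8a had none and Cd8b1 had 16 and 20 reads in WT against 11 and 11 in Il2ra mut/mut libraries. Its part in the results was not tested.

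**Figure D1:**
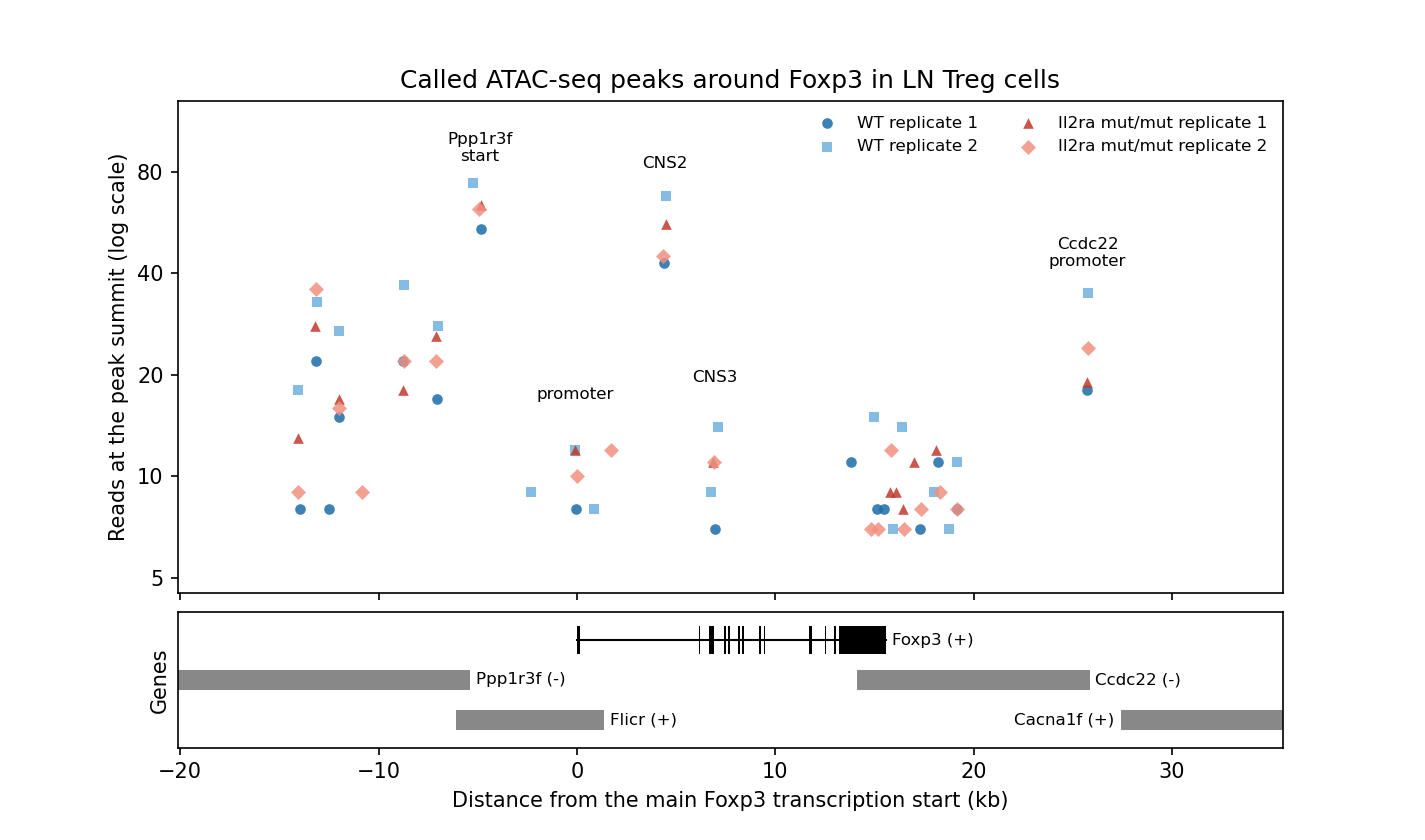
Reads at the summit of each called peak (log axis, 1 point per peak and library) against the distance of the summit from the main Foxp3 start in kb, with the exons of the main Foxp3 transcript (black) and neighbouring genes (grey, strand in brackets) underneath. The Ppp1r3f start region (54 to 74 reads) and CNS2 (43 to 68 reads) stand above every other region, while the Foxp3 promoter (8 to 12 reads) and CNS3 (7 to 14 reads) lie near the bottom.

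Within the gene, CNS2 was the most open element and the promoter and CNS3 were among the least open regions called in all libraries. This held in each of the 4 libraries. CNS2 (chrX:7583760-7584598, intron 1, summit 4.43 kb after the start) held 43 and 68 reads in the WT libraries, against 56 and 45 reads in those of Il2ra mut/mut cells. They had fold enrichments of 22.3, 34.9, 25.6 and 22.4 and −log10 p values of 55.3, 99.3, 72.0 and 57.1. Their −log10 p stood at percentiles 94.9, 96.1, 95.3 and 95 of their lists, a spread of 1.19 percentile points over the libraries, and the genotypes overlapped. The 4 summits fell within 130 bp of each other, on a stretch that holds the STAT word and reaches the full CRE word shown above. Only the region over the Ppp1r3f start was higher in the window, again in every library.

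The Foxp3 promoter region (chrX:7579195-7579945, summit 90 bp before the start) held 8 and 12 reads in WT and 12 and 10 reads in Il2ra mut/mut libraries. Its fold enrichments were 4.56, 6.57, 5.83 and 5.35 and its −log10 p values 6.04, 10.3, 9.12 and 7.75. In percentiles these were 47.8, 74.5, 72.6 and 71.4, with WT replicate 1 below the other libraries. Compared with the 13000 promoter regions called in all 4 libraries, whose median heights were 30, 42, 39 and 36 reads, the Foxp3 promoter was low: 5.82%, 9.55%, 11.6% and 8.93% of them were at its height or lower. CNS2, in contrast, was as high as or higher than 95.3%, 95.8%, 95.3% and 93.3% of the 25281 regions more than 1 kb from a start, whose median heights were 11, 15, 14 and 13 reads. Of the 38281 regions called in all 4 libraries, 629 lie on chromosome X, so both ranks are mostly against autosomal regions. The part of the inactivated X copy in these ranks was not tested.

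CNS3 (chrX:7586253-7586922, over exon 3 and the adjoining parts of introns 2 and 3, summit 6.93 kb after the start) had a height close to that of the promoter. It held 7 and 14 reads in WT against 11 and 11 in Il2ra mut/mut libraries, with fold enrichments of 4.05, 7.58, 5.38 and 5.83 and −log10 p values of 5.07, 12.7, 8.10 and 8.81. Its percentiles were 26.6, 78.5, 66.2 and 76.5, the widest spread of any region called in all libraries, with WT libraries at both the lowest and the highest value. In WT replicate 2 it was called as 2 peaks, with 9 and 14 reads. An annotated alternative start of Foxp3 lies within 1 kb of CNS3, which therefore counts among the promoter regions, and 2.89%, 13.1%, 9.15% and 11.3% of these were at its height or lower. As an intronic element it was also set beside the regions more than 1 kb from a start, of which 13.7%, 49.6%, 35.4% and 42.5% were at its height or lower. CNS3 reached 0.875, 1.17, 0.917 and 1.1 times the height of the promoter in the 4 libraries, so that neither stood above the other throughout.

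No peak was called in any library over the stretch taken here as CNS1, whose bounds, like those of CNS2 and CNS3, come from background knowledge. The nearest was a peak in intron 1 (chrX:7581284-7581522, 1.69 kb after the start) with 12 reads, a fold enrichment of 6.32 and a −log10 p of 9.90 (percentile 79.7), called in Il2ra mut/mut replicate 2 only. A list holds only what passed the authors' threshold, so a pile-up under the 5 to 6 reads of the lowest peaks would not appear in it. Openness of CNS1 below that height was not detectable at this depth.

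**Figure D2:**
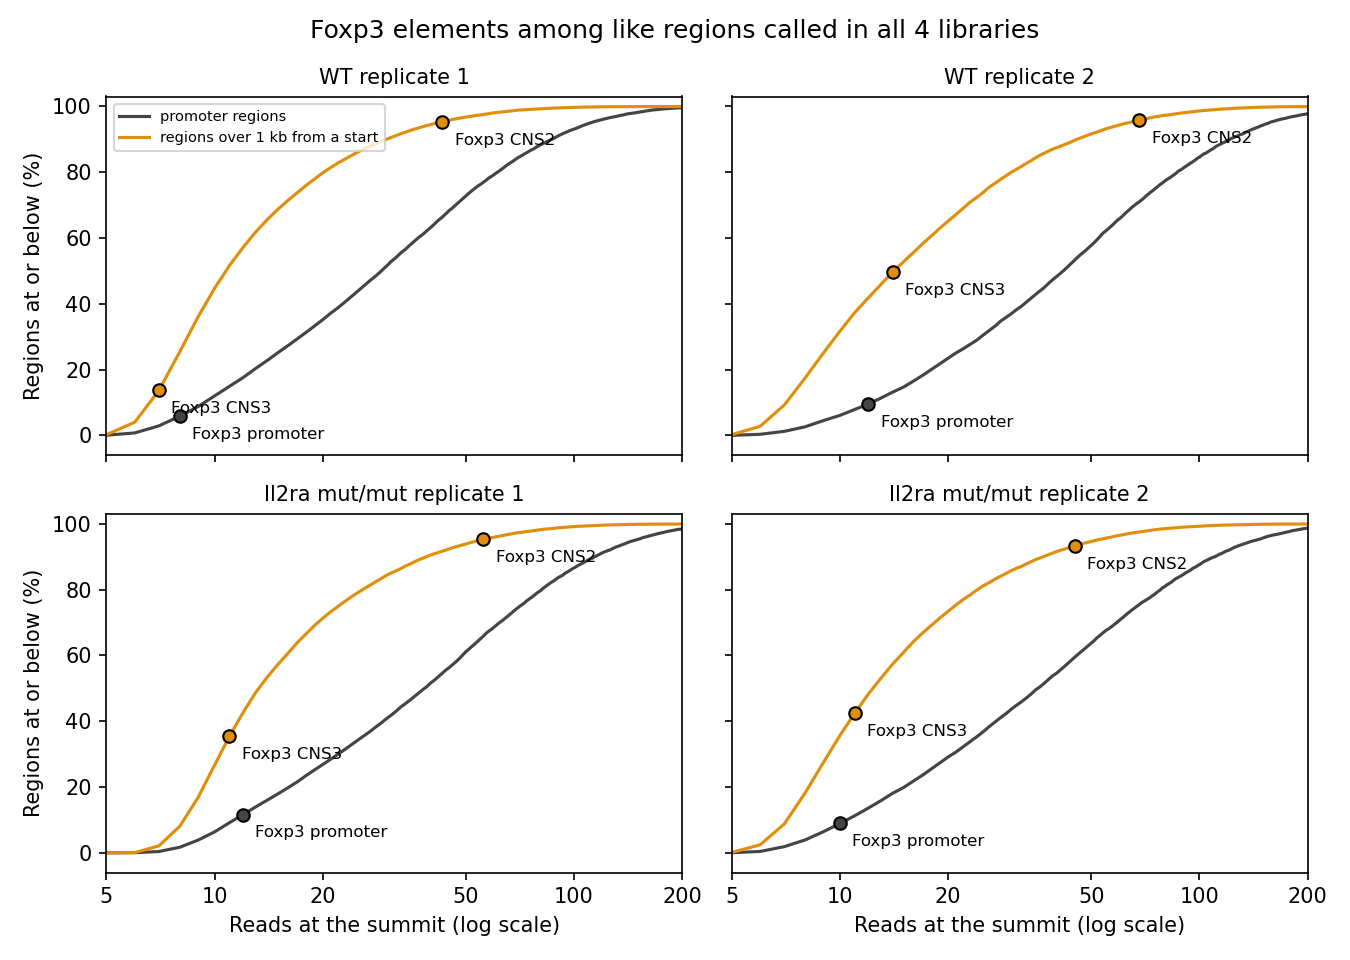
Share of regions (in %) with at most a given number of reads at the summit (log axis), for the 13000 promoter regions (grey) and the 25281 regions more than 1 kb from a start (orange) called in all 4 libraries, 1 panel per library, with the Foxp3 promoter marked on the grey curve and CNS2 and CNS3 on the orange one, although CNS3 lies within 1 kb of an alternative start. The promoter lies at 5.82% to 11.6% of the promoter regions, and CNS2 at 93.3% to 95.8% of the distal regions.

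The ratio of CNS2 to promoter height was 5.38 and 5.67 in WT against 4.67 and 4.5 in Il2ra mut/mut libraries, with means of 5.52 ± 0.206 and 4.58 ± 0.118 (SD, n = 2 per genotype). Of the reads at both summits, CNS2 took 84.3% (95% exact binomial interval 71.4 to 93.0), 85% (75.3 to 92.0), 82.4% (71.2 to 90.5) and 81.8% (69.1 to 90.9), intervals that cover counting error only. The ratios of the genotypes did not overlap, but every interval held the values of the other 3 libraries. An exact two-sided permutation test gave p = 0.33, the smallest that 2 against 2 libraries allow. The CNS3 to promoter ratio averaged 1.02 ± 0.206 for WT and 1.01 ± 0.130 for Il2ra mut/mut (exact permutation p = 1).

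The 5 weakly supported regions, each called in 1 library, held 8 to 12 reads at percentiles 43.8 to 79.7. Besides the intron 1 peak near CNS1, these were a peak 10.83 kb before the start (9 reads, Il2ra mut/mut replicate 2), a peak 2.31 kb before it within Flicr (9 reads, WT replicate 2), a peak in intron 1 0.83 kb after the start (8 reads, WT replicate 2) and a peak in exon 13 13.79 kb after it (11 reads, WT replicate 1). Of the 17 regions, 11 (64.7%) were called in all 4 libraries, against 14.1% of the regions of the series, and 5 (29.4%) in 1 library, against 61.4%. None was called in exactly 2 libraries. The remaining region, in Ccdc22 (chrX:7598682-7599019), was called in 3 libraries with 8 and 11 reads in WT and 8 reads in Il2ra mut/mut replicate 2. The 1-library regions stood at heights that the promoter and CNS3 also had, so height alone did not separate them from these elements.

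Upstream of the promoter, 6 further regions were open in all libraries, and 5 of them were higher than the Foxp3 promoter in each library. They lie in or at the start of Ppp1r3f, a regulatory subunit of protein phosphatase 1 that is read from the minus strand. The strongest region of the window (chrX:7573643-7575594, 4.89 kb before the main Foxp3 start) covers the start of Ppp1r3f and lies within 1 kb of a start of Flicr, a noncoding RNA known to act on Foxp3, and the GENCODE model of the Foxp3 gene begins at its edge. It held 54, 74, 64 and 62 reads at percentiles 96.5, 96.7, 96.2 and 96.8, in the order given before. Its fold enrichments were 27.9, 37.9, 29.2 and 30.6. Of the 11 regions called in all libraries it varied least in rank, with 0.667 percentile points between the libraries.

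The region 13.16 kb before the start held 22 and 33 reads in WT against 28 and 36 in Il2ra mut/mut libraries (percentiles 88.6, 90.2, 89.4 and 93.5). The region 8.75 kb before it (chrX:7570504-7571371) held 22 and 37 reads in WT against 18 and 22 in Il2ra mut/mut libraries (percentiles 88.6, 91.3, 84.0 and 89.3). It overlaps the rough interval in which the upstream element CNS0 was placed here, at the edge of that interval, and the name is not used for it. At 7.08 kb before the start, 17 and 28 reads in WT against 26 and 22 in Il2ra mut/mut libraries were found (percentiles 85.1, 88.6, 88.7 and 89.3). The region 12 kb before the start had 15, 27, 17 and 16 reads. The farthest, 14.05 kb before the start, was weak and uneven, with 8, 18, 13 and 9 reads and percentiles 47.8, 83.0, 76.4 and 62.3. GATA words lay in 5 of the 6 windows centred on these summits, all but that at 7.08 kb, and AP-1 words in the 2 farthest. The GATA word was in 11.3% of all windows and the AP-1 word in 10.7%. Among regions more than 1 kb from a start these shares were 14.3% and 13.4%.

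Downstream, the Ccdc22 promoter (chrX:7605203-7605992, 25.74 kb after the Foxp3 start) held 18 and 35 reads in WT against 19 and 24 in Il2ra mut/mut libraries, and it also covers the start of the noncoding Gm36995. Ccdc22 encodes a subunit of a complex in endosomal recycling. From the 3′ end of Foxp3 into Ccdc22, weak peaks overlapped in a chain of 4.57 kb (chrX:7594000-7598565) that held 4, 5, 5 and 6 peaks in the 4 libraries. The highest of them had 11, 15, 12 and 12 reads, and its summits lay up to 3248 bp apart, so the chain is not 1 element. The promoter of Cacna1f, a calcium channel subunit gene that also starts in the window, had no peak in any library.

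**Figure D3:**
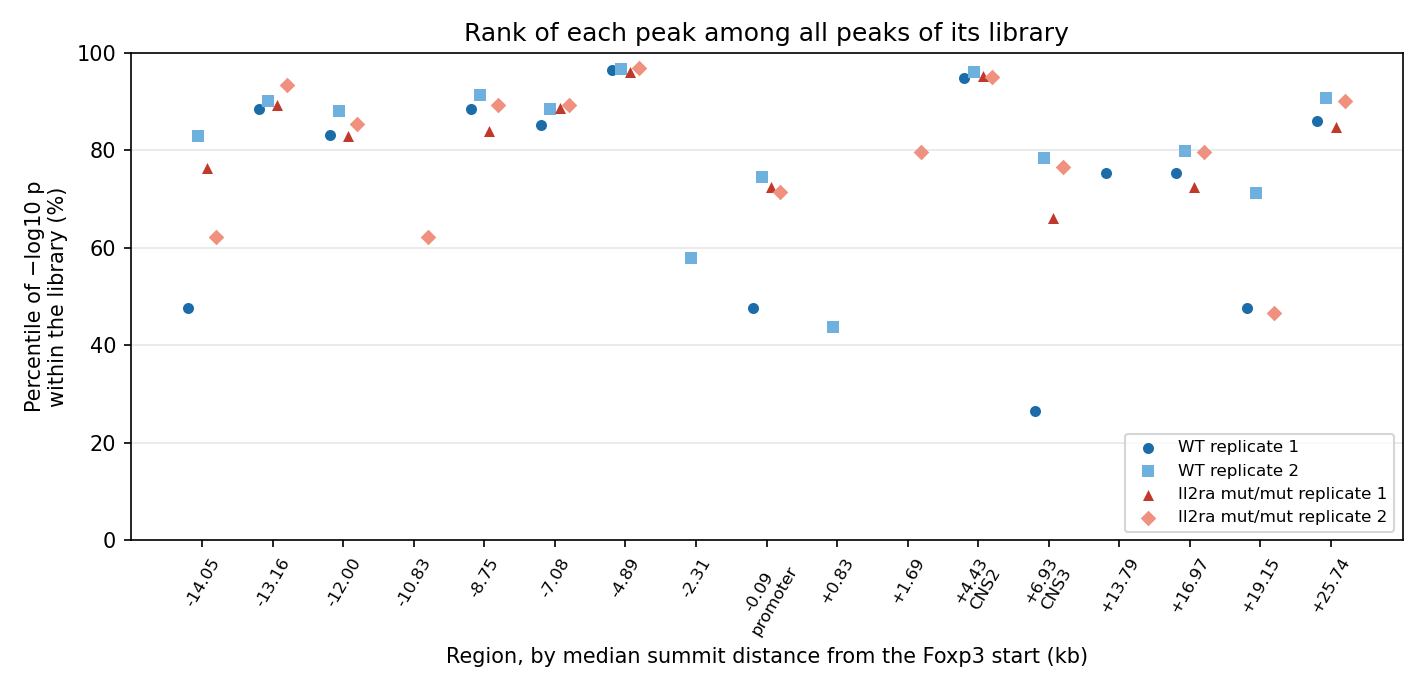
Percentile of the −log10 p of each peak among all peaks of its library (in %, ties at their mean rank), for the 17 regions in the order of their distance from the main Foxp3 start in kb, with 1 point per library where a peak was called. The Ppp1r3f start region and CNS2 lie near the top in all libraries, whereas the promoter and CNS3 spread from 47.8 to 74.5 and from 26.6 to 78.5.

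The order of the 11 regions was alike in all libraries. Spearman's rho between libraries over these 11 regions ran from 0.897 to 0.954, given as a description, since the regions are parts of one locus. In a window of the same length around the start of each of 21911 protein-coding genes, the median number of regions called in all 4 libraries was 1, and 99.7% of the genes had at most the 11 found around Foxp3. Of the 948 such genes on chromosome X, none had more.

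Reproducibility was then examined by the irreproducible discovery rate (IDR), the measure by which the study defined an open chromatin region (OCR), fitted over all regions called in both libraries of a genotype. The same 7 regions of the window passed an IDR of 0.05 in both genotypes, and all of them overlapped between the genotypes, so that no OCR of the window was unique to a genotype. They were CNS2, the Ppp1r3f start region, the Ccdc22 promoter and the regions 13.16, 12, 8.75 and 7.08 kb before the start. Over the series, 45.4% of the regions called in both WT libraries and 42.1% of those called in both Il2ra mut/mut libraries passed. The IDR of CNS2 was 6.68e-09 for the WT pair and 1.81e-08 for the Il2ra mut/mut pair. The Foxp3 promoter did not pass in either genotype (0.377 for the WT pair, 0.0735 for the other), and neither did CNS3 (0.466 and 0.0796). Nor did the region 14.05 kb before the start or, in WT, the Ccdc22 region called in 3 libraries. Joined per genotype, the 3′ chain was several regions, and none of them passed. These complete the regions of the window called in both libraries of a genotype. OCRs by this fit therefore include CNS2 and leave out the main promoter, although a peak was called there in every library. The fit was made anew on joined regions and passed 25353 regions in WT and 25601 in Il2ra mut/mut. These numbers differ from those of the study, so its own set of OCRs may differ at the promoter too.

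The genotypes were compared to ask whether reduced IL-2 signals altered the openness of the locus. Only regions with a peak in all 4 libraries entered the test, so a region gained or lost with the genotype could not be called by it. None of the 11 regions passed the test between Il2ra mut/mut and WT Treg cells (limma with trend on log2 of the summit reads plus 1, centred per library on the median of the 38281 regions called in all 4 libraries, adjusted p from 0.464 to 0.979 after Benjamini-Hochberg adjustment over all of them). In the whole fit, 135 regions (0.353%) were higher in Il2ra mut/mut and 176 (0.46%) were higher in WT. The variance of a region came wholly from the trend of variance with height over all regions (infinite prior degrees of freedom). Standard errors, intervals and p-values of this fit therefore do not measure the scatter of a region between its own replicates. An unadjusted p under 0.05 was reached by 1 of the 11 regions, beside 9.61% of all regions. The median log2 difference over the 11 regions was −0.151, against 0.0193 over all regions, with 7 regions lower and 4 higher in Il2ra mut/mut. The median size of the difference, whatever its sign, was 0.165 in the window and 0.203 over all regions.

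At CNS2 the centred log2 heights were 1.55 and 1.72 in WT against 1.58 and 1.35 in Il2ra mut/mut libraries, and the groups overlapped. The log2 difference was −0.17 ± 0.19 (SE, adjusted p = 0.885 by limma), with a 95% interval from −0.55 to 0.22. At the promoter the log2 difference was 0.09 ± 0.34 (SE, adjusted p = 0.979 by limma), with an interval from −0.58 to 0.75. At CNS3 it was 0.07 ± 0.34 (SE, adjusted p = 0.979 by limma), with an interval from −0.59 to 0.73, and it became −0.14 without WT replicate 1, the library with 7 reads there. The intervals of the promoter and CNS3 thus still hold a change of either sign of more than 0.5 on the log2 scale, a width that comes with 7 to 14 reads, whereas that of the Ppp1r3f start region ran from −0.42 to 0.29 around −0.06.

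The region 8.75 kb before the start was the only one whose interval lay on 1 side of 0. Its centred log2 heights were 0.62 and 0.86 in WT against 0 and 0.35 in Il2ra mut/mut libraries, without overlap. Such heights were also without overlap at the region 12 kb before the start, the Ppp1r3f start region and the 3′ chain. The share of all regions without overlap in centred heights was not counted. The log2 difference was −0.56 ± 0.27 (SE), with an interval from −1.08 to −0.04, and the adjusted p was 0.464 by limma, so that it was not called. Every alternative setting gave a value below 0 there, as 7 of the 11 regions kept their direction throughout. Fits on reads gave −0.74 to −0.38, and the fit on −log10 p, which has another unit, gave −0.77. In the settings that kept all libraries the adjusted p was at least 0.415 by limma. At the Ccdc22 promoter the log2 difference was −0.29 ± 0.27, and at the region 12 kb before the start it was −0.33 ± 0.30 (SE), both with intervals that included 0.

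**Figure D4:**
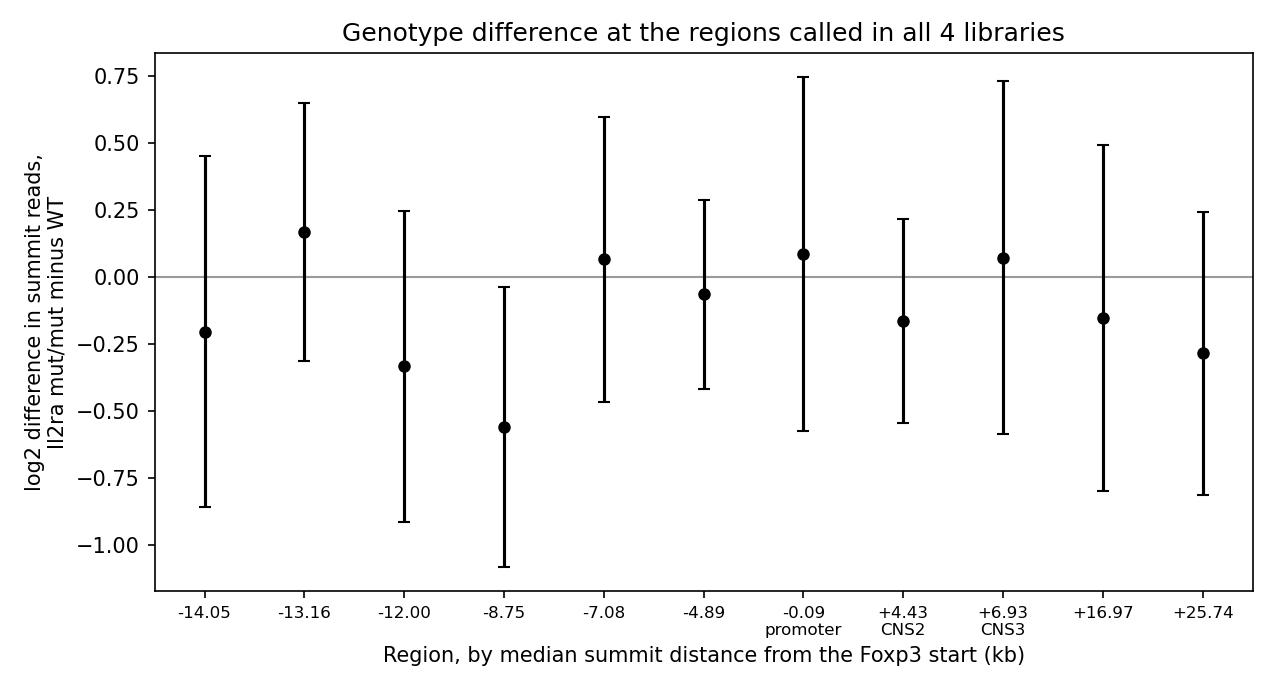
log2 difference in summit reads between Il2ra mut/mut and WT (limma, points) with its 95% interval (bars), for the 11 regions called in all 4 libraries, in the order of their distance from the main Foxp3 start in kb. The interval of the region 8.75 kb before the start ran from −1.08 to −0.04, the other 10 included 0, and no region passed an adjusted p of 0.05.

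By the within-library percentile of the −log10 p, which needs no scaling between libraries, 1 of the 11 regions, at 7.08 kb before the start, was higher in both Il2ra mut/mut libraries than in both WT libraries, beside 26.2% of all regions. None was higher in both WT libraries, beside 12.6%. These shares depended on the set of peaks that gave the rank. Among the regions called in all 4 libraries only, none was higher in both Il2ra mut/mut libraries (20.4% of all) and 5 were higher in both WT libraries (19.4% of all), namely CNS2, the Ppp1r3f start region, the 3′ chain and the regions 12 and 8.75 kb before the start. Among the peaks of chromosome X, none was higher in both Il2ra mut/mut libraries (18% of the chromosome X regions) and 2 were higher in both WT libraries (14.1%), CNS2 and the region 8.75 kb before the start. At CNS2 replicates 1 of WT and Il2ra mut/mut were nearly equal. They stood at 90.87 and 90.77 among chromosome X peaks, and at 85.22 and 85.1 among regions called in all 4 libraries. The counts of regions without overlap therefore changed with the reference set. In the 5 regions higher in both WT libraries, the mean percentile among all peaks was already lower in Il2ra mut/mut. Those mean differences ran from −3.35 to −0.0982 percentile points.

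The promoters of 31 factors known to act on Foxp3, among them STAT5, RUNX, ETS, NFAT and SMAD proteins, TET enzymes and chains of the IL-2 receptor, were all called in every library. Each of the 31 stood at a higher percentile than the Foxp3 promoter in each library, from 81.9 to 99.8. Most promoters did so, since only 5.82% to 11.6% of the 13000 promoter regions were at the height of the Foxp3 promoter or lower. The count is thus no trait of the listed factors. None of them passed an adjusted p of 0.05 between the genotypes, beside the 0.353% and 0.46% of all regions given above, and 4 of the 31 (12.9%) had an unadjusted p under 0.05, beside 9.61% of all regions. Their median log2 difference was 0.113, against 0.0193 over all regions. These 4 were Foxp1, a forkhead factor (−0.68 ± 0.29, adjusted p = 0.355), Stat5b, which carries IL-2 signals to CNS2 (−0.46 ± 0.21, adjusted p = 0.407), Gata3, which binds CNS2 (0.43 ± 0.19, adjusted p = 0.408) and Nfatc1 (−0.53 ± 0.26, SE, adjusted p = 0.482, all by limma). The reads at the Stat5b promoter were 44 and 58 in WT against 38 and 38 in Il2ra mut/mut libraries, and at Stat5a they were 114, 138, 141 and 126. At the promoter of Il2ra, the mutated gene, 41 and 58 reads in WT stood against 29 and 27 in Il2ra mut/mut libraries (log2 difference −0.84 ± 0.22, adjusted p = 0.0295 by limma), which is not a check of the labels, since a point mutation leaves the promoter in place.

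The promoters most like that of Foxp3 were sought by the Euclidean distance of the 4 percentiles, over 11320 protein-coding genes with a promoter region called in all 4 libraries. The nearest were Dpp7, Nmral1, Slc5a5, Nt5dc2 and Plekha7, at distances of 6.51, 6.71, 6.71, 8.24 and 8.37 percentile points. Dpp7 had 8, 14, 12 and 11 reads, and Foxp3 had 8, 12, 12 and 10. At these heights a single read moves a peak by several percentile points, and the order of these neighbours does not exceed that step.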

How the data were processed

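Per the labels, the deposited files are peak lists of ATAC-seq libraries of sorted RFP+ LN Treg cells, 2 per genotype. According to the submitters' processing notes the tools were Trim Galore (0.3.7), BWA (0.7.13), SAMtools (0.1.19), Picard (1.92) and MACS2 (2.1.0), on mm10. The authors called narrow peaks per library, after removal of duplicated and mitochondrial reads and a shift of the reads for the transposase. Each deposited peak holds a score, a fold enrichment (a ratio to background) at the summit, a −log10 p-value and a −log10 q-value. The deposited fold enrichment was (n + 1)/(background + 1), with n a whole number of reads within 0.05 in 100% of the peaks. No library totals were used, so depth is known only from the background, 0.974 to 1.23 reads.

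Peaks were joined at an overlap of at least 1 bp, and the height of a region in a library is that of its highest peak. Promoter regions lie within 1 kb of a GENCODE start. limma (3.58.1, R 4.3.3) was fitted with trend over the 38281 regions called in all 4 libraries on the assembled chromosomes, with a pseudocount of 1 read, and calls are at a Benjamini-Hochberg adjusted p of at most 0.05. IDR was computed with scipy (1.17.1), numpy (2.4.6) and pandas (2.3.3) under Python (3.11.15). The joining, IDR, limma and word steps were tested on simulated data. Sequences were read with pysam (0.24.0) from the RefSeq assembly GRCm38, which has the coordinates of mm10, and figures were drawn with matplotlib (3.10.9). The labels give 2 mice and 2 libraries per genotype, and 1 mouse per library is inferred. All p-values compare these libraries, whose spread may be technical. Those of limma take that spread from the trend over all regions, not from the region at hand.

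The window, the gene lists, the markers and the words were chosen with earlier results of these data known. Named were every region of the window, the known elements, genes starting in the window, the 5 promoters closest in percentile, the markers (1 is not reported here), and the 4 listed factors with the smallest p. Alternatives were quantile normalization, centring on promoter or chromosome X regions, no pseudocount, a mean of at least 10 reads, −log10 p in place of reads, a replicate block, leaving out each library, joining at 50% of the shorter peak, other percentiles and ties, a −log10 q of at least 3, equal list lengths, 10 kb flanks, and for IDR another ranking, seed or threshold.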

Additional observations from a re-analysis of the deposited data

How the results depend on the processing

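No region of the window passed an adjusted p of 0.05 in any of the 12 alternatives to the limma fit, and the median log2 difference over the regions lay below 0 in all 12, from −0.209 to −0.0494. Leaving out 1 library at a time gave medians from −0.139 to −0.0494 and 0 called regions. Of 131 values of single regions, 125 kept their direction and 7 of the 11 regions never changed it. The 6 that reversed all came from leaving out a library. The values so obtained ran from −0.139 (without WT replicate 1) to 0.283 at CNS3. Before the start, they ran from −0.0354 (without WT replicate 1; −0.0107 without Il2ra mut/mut replicate 1) to 0.167 at 7.08 kb, from −0.0459 (without Il2ra mut/mut replicate 2) to 0.384 at 13.16 kb, and from −0.5 to 0.0927 (without WT replicate 2; 0.000105 without Il2ra mut/mut replicate 2) at 14.05 kb. The labels share replicate numbers, but same-numbered libraries deviated together only weakly (correlation 0.0549 over 38281 regions, 2 pairs), so the numbers were not taken as pairs. With a replicate block the median remained −0.151, 0 regions of the window were called and the calls over all regions went from 311 to 296.

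The number of regions called in all libraries used was 11 to 14 when 1 library was left out. At a −log10 q of at least 3, 10 regions instead of 11 were called in all 4 libraries and 2 instead of 1 in exactly 3. The region that moved was CNS3, whose peak in WT replicate 1 had a −log10 q of 2.85. Joining at 50% of the shorter peak gave 2 regions called in exactly 3 libraries and 8 called in 1 library. The 7 reproducible regions per genotype remained 7 with another ranking, seed or IDR threshold. The counts of non-overlapping ranks moved as given above, from 1 to 0 (higher in Il2ra mut/mut) and from 0 to 2 or 5 (higher in WT), and the cause was not tested. Ranked among chromosome X peaks, percentiles fell to 24.9, 51.7, 39.6 and 46.3 at the promoter, to 90.9, 94.5, 90.8 and 89.7 at CNS2 and to 12.6, 58.3, 33.6 and 51.3 at CNS3. With ties at their lowest rank, the promoter stood at 38.5, 73.2, 70.2 and 68.2 and CNS3 at 14.7, 77.7, 62.2 and 74.7. Heights of 7 to 14 reads limit what can be said of the promoter and CNS3.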
